A study of Mus musculus with 4 samples.

Results

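Tendon and cartilage matrix genes were examined in bulk normal muscle from wild type mice, which had a mixed background of the strains 129S4/SvJae and C57BL/6. The list named 9 genes, and 8 of them, of 12393 genes measured, had at least 1 probe set that the platform annotation gave to that gene alone: Scx, Tnmd, Fmod, Kera, Chad, Comp, Thbs4 and Cilp2. Mkx, a homeobox factor of tendon, was not analysed here. A gene with more than 1 probe set was read from the brightest on average, so the probe set was chosen by its measured level, and the genes themselves were picked with their values in these samples known. Their levels and spread are therefore given as a description, with no test.

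The 4 samples, titled skm4, skm5, nm8 and nm7, all carried the same labels for strain, tissue and genotype, and no treatment, age or sex was given for them. Elsewhere in the series are rhabdomyosarcomas and pleomorphic sarcomas of mouse muscle, not analysed here. The meaning of the prefixes skm and nm is not in the labels, nor do the labels name separate animals, so the spread between samples may be technical. Each value is a log2 expression value from 1 array. RNA was taken from bulk tissue, in which fewer tendon cells and less RNA per tendon cell cannot be told apart.

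Tendon joins muscle to bone through parallel fibrils of type I collagen, which tendon fibroblasts make and which small leucine-rich proteoglycans (SLRPs) and thrombospondins help to order. Several of these matrix proteins are shared with cartilage, and some of the same matrix runs into the muscle belly as aponeurosis and at the myotendinous junction. A piece of muscle can therefore carry tendon transcripts. In the mouse, Scx, a basic helix-loop-helix factor of tendon progenitors, acts upstream of Tnmd, and factors of this class bind the E-box, written CANNTG.

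Promoter windows are shown for the member with the widest spread between samples (Chad), for the transmembrane marker of mature tendon cells (Tnmd) and for the member whose probe sets disagreed (Fmod). Each runs from 250 bases before to 50 bases after the gene's annotated start on RefSeq's GRCm38.p6 table, read 5′ to 3′ on the gene's strand. Capitals mark each CANNTG, which reads as CANNTG on the other strand too. The windows lie on the plus strand at chr11:94564797-94565096 for Chad, chrX:133850758-133851057 for Tnmd and chr1:134037004-134037303 for Fmod.
Chad: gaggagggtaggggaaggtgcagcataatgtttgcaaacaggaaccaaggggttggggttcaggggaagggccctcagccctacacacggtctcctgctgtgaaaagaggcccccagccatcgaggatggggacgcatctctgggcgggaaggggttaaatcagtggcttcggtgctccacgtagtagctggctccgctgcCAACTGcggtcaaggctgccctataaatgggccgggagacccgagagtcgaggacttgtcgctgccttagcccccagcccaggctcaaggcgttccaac
Tnmd: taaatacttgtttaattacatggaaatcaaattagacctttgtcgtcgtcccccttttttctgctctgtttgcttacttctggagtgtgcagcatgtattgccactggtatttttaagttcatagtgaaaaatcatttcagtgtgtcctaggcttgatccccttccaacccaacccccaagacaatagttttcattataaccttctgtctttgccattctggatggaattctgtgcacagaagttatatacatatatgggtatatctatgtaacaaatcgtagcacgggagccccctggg
Fmod: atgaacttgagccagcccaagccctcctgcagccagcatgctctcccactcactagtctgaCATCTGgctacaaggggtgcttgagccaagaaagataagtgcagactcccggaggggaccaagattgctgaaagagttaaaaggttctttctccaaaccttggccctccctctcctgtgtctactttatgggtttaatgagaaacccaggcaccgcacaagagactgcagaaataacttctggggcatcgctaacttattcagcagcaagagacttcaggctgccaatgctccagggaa

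The table held windows for 6 of the 8 genes, and 4 of those windows had at least 1 CANNTG, against 72.3% of all 32851 windows of the same length. In Chad the match was CAACTG, beginning 49 bases before the start, with a TATAAA beginning 28 bases before it. TATAAA, on either strand, was in 1 of the 6 windows and in 13.6% of all windows. In Fmod the match was CATCTG, beginning 189 bases before the start. That form of the E-box, counted with its reverse complement CAGATG, was in 1 of the 6 windows and in 17.2% of all windows. Cilp2 had CAGTTG, beginning 156 bases before its start. Thbs4 had CAAATG, beginning 115 bases before its start, and CACCTG, beginning 43 bases after it. The Tnmd and Kera windows held none of these motifs. Such matches describe the sequence and show no binding. On the same assembly Scx lies within the span of Bop1 and Chad within the span of Acsf2. Bop1 read 8.88 in skm4, 8.91 in skm5, 8.74 in nm8 and 8.80 in nm7.

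The tissue label was checked against the defining genes of skeletal muscle and the background against control probe sets. The muscle genes were near the top of the scale in every sample. Among them, Pvalb, a calcium buffer of fast fibres, averaged 14.65 ± 0.04, Acta1, skeletal actin, 14.64 ± 0.07, Ckm, muscle creatine kinase, 14.60 ± 0.02, and Myh4, a fast myosin heavy chain, 14.54 ± 0.04 (SD, n = 4). Array medians lay between 7.26 and 7.30. The 3 control probe sets for TrpnX, a bacterial transcript, read between 3.40 and 4.05 and so mark the background. All 8 members lay above them in every sample, but so did nearly all genes. Hapln1, at a mean of 4.01, was already at percentile 2.4 of all genes by level. Scx, the dimmest member, averaged 6.25, at percentile 28.6 and under every array median.

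The tendon and cartilage matrix genes were lowest in nm8. The lowest of the 4 samples was nm8 for 7 of the 8 genes, and for 21.8% of all genes. The exception was Fmod as read by its brightest probe set. The range over the samples passed 1 on the log2 scale, which is 2-fold, for 3 of the 8 genes (Chad, Comp and Tnmd), and for 5.98% of all genes. Tnmd lay just inside that limit with a range of 1.03, and Cilp2 just outside with 0.90. The members' median SD was 0.36, against 0.19 over all genes (n = 4 samples). Earlier results of these data had already shown tendon markers low in nm8, so nothing further is read from these shares.

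**Figure D1:**
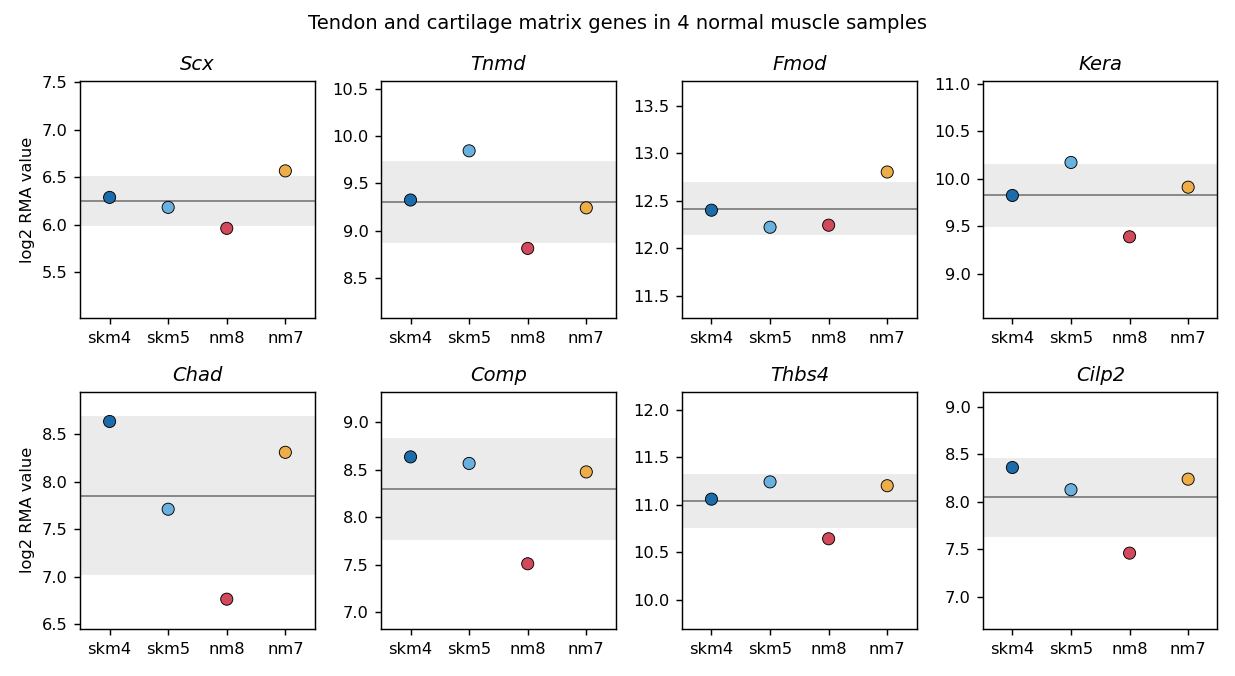
Log2 RMA values of the 8 measured genes in each sample, 1 panel per gene, with every vertical axis spanning the same width in log2 units. Each point is 1 sample, the grey line is the gene's mean and the grey band its SD over the 4 samples. In nm8 the point is the lowest in every panel but that of Fmod, and the spread is widest for Chad, from 6.76 to 8.63.

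The members' median spread was smallest without that sample, though this did not hold for each gene. Without nm8 no member had a range over 1, the largest being 0.93, and their median SD was 0.19, against 0.18 over all genes. Without any other single sample the members' median SD was 0.30 to 0.43. Tnmd had its smallest SD without skm5 (0.27, against 0.33 without nm8). Fmod and Scx had theirs without nm7 (0.10 and 0.17, against 0.30 and 0.20 without nm8). The members were picked with their low values in nm8 known, which favours a smaller spread without it.

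Among the regulators, Scx read 6.29 in skm4, 6.18 in skm5, 5.96 in nm8 and 6.57 in nm7, a mean of 6.25 ± 0.25 (SD, n = 4). It was highest in nm7 and lowest in nm8, with both skm samples between them and a range of 0.61.

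Tnmd encodes tenomodulin, a transmembrane glycoprotein of mature tendon fibroblasts. It read 9.33 in skm4, 9.84 in skm5, 8.82 in nm8 and 9.24 in nm7, a mean of 9.31 ± 0.42 (SD, n = 4). Both skm samples lay above both nm samples, by a narrow margin between skm4 and nm7. The distance from the lowest to the highest sample was 2.04-fold.

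The 3 leucine-rich repeat proteins of the list differed in their spread. Chad, chondroadherin, a cell-binding protein of cartilage and tendon matrix, read 8.63 in skm4, 7.71 in skm5, 6.76 in nm8 and 8.31 in nm7, a mean of 7.85 ± 0.82 (SD, n = 4). Its samples were spread over a 3.66-fold range with skm4 and nm7 at the top, and its SD lay at percentile 99.3 of all genes. Acsf2, in whose span Chad lies, read 7.17 in skm4, 7.40 in skm5, 7.11 in nm8 and 7.26 in nm7.

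Kera encodes keratocan, a keratan sulfate proteoglycan best known from cornea and also found in tendon. It read 9.82 in skm4, 10.17 in skm5, 9.39 in nm8 and 9.91 in nm7, a mean of 9.82 ± 0.33 (SD, n = 4). As for Tnmd and Thbs4, the highest sample was skm5.

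Fmod encodes fibromodulin, an SLRP that binds type I collagen and limits fibril growth. Its brightest probe set read 12.40 in skm4, 12.22 in skm5, 12.24 in nm8 and 12.80 in nm7, a mean of 12.42 ± 0.27 (SD, n = 4). Here nm7 stood highest and the other samples lay close together, with skm5 and nm8 level.

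The other 5 Fmod probe sets were all lowest in nm8. The single one of the 6 whose name carries no mark of possible cross-hybridization was the second brightest, and it read 11.97 in skm4, 11.77 in skm5, 10.52 in nm8 and 11.18 in nm7. On that probe set both skm samples lay above both nm samples and the range was 1.45, against 0.58 on the brightest one. The next in brightness read 11.18 in skm4, 11.34 in skm5, 10.31 in nm8 and 11.49 in nm7. The remaining 3 Fmod probe sets had ranges of 0.80, 0.92 and 0.43. Between nm8 and nm7, all 6 Fmod probe sets went the same way, with nm8 lower by 0.36 to 1.18 on the log2 scale. The other 7 genes had 1 probe set each and allowed no such check.

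**Figure D2:**
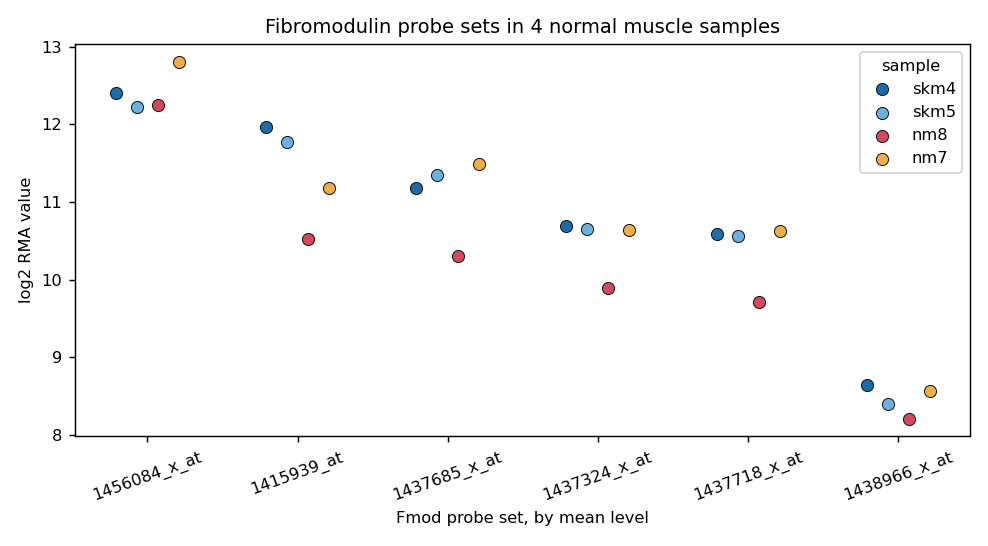
Log2 RMA values of the 6 Fmod probe sets, ordered by mean level along the horizontal axis, with 1 point per sample. The nm8 point is lowest on 5 probe sets and stands level with skm5 on the brightest, where nm7 is high at 12.80.

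Comp and Thbs4 encode thrombospondins that bind collagen and calcium. Comp, cartilage oligomeric matrix protein, read 8.64 in skm4, 8.57 in skm5, 7.51 in nm8 and 8.48 in nm7, a mean of 8.30 ± 0.53 (SD, n = 4). The skm samples and nm7 lay within a band of 0.16, and nm8 stood 0.97 below the nearest of them, or 1.96-fold lower than nm7.

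Thbs4, thrombospondin 4, is made in tendon and muscle and is found at the myotendinous junction. It read 11.06 in skm4, 11.24 in skm5, 10.64 in nm8 and 11.20 in nm7, a mean of 11.04 ± 0.27 (SD, n = 4). As for Comp, the skm samples and nm7 lay close together and nm8 below them, with a gap of 0.42 to the nearest.

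Cilp2, cartilage intermediate layer protein 2, is a secreted matrix protein of cartilage. It read 8.36 in skm4, 8.13 in skm5, 7.46 in nm8 and 8.24 in nm7, a mean of 8.05 ± 0.40 (SD, n = 4). The gap between nm8 and the next sample was 0.67.

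With each gene read from its brightest probe set, Chad, Comp and Cilp2 were the 3 members with nm8 at least 0.5 below every other sample. Of all genes, 0.565% had such a gap, a share that is only a description because of how the members were picked. On 4 of the 6 Fmod probe sets, though not on the brightest, nm8 also lay at least 0.5 below every other sample. Chad, Comp and Cilp2 were highest in skm4, while Tnmd, Kera and Thbs4 were highest in skm5 and Scx and Fmod in nm7.

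Since the prefixes may mark a batch, of which the labels say nothing, nm8 was also set against nm7, the sample with the same prefix. All 8 members were lower in nm8 than in nm7, by 0.43 (Tnmd) to 1.55 (Chad) on the log2 scale, and 45.7% of all genes were lower there. The same direction held for 8 of 8 other SLRP genes, 3 of 3 other thrombospondins and 15 of 18 other tendon genes. It also held for 6 of 7 myotendinous junction genes and 12 of 19 cartilage genes, so it was not particular to the members. The median difference, nm8 minus nm7, was -0.58 over the members and 0.02 over all genes. It was at or under -0.5 for 7 of the 8 members and for 2.84% of all genes. Each side of this comparison is 1 sample and has no replicate check. The members were picked with their low values in nm8 known, so these shares too are a description and no further support. Within the other prefix, the median of skm4 minus skm5 was 0.09, with Chad at 0.93 and Tnmd at -0.52 at the ends.

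Between the prefixes, skm minus nm, none of the 8 members passed limma's test over 12393 genes at an adjusted p under 0.05, while 0.0323% of all genes passed. None passed at an unadjusted p under 0.05 either, against 23.5% of all genes. The adjusted p-values ran from 0.228 to 0.952, with n = 2 per prefix in the limma fit. Only Tnmd and Comp had no overlap between the prefixes, 2 of 8, against 54.4% of all genes. The members were picked with their low values in nm8 known. A low value in 1 of the 2 nm samples widens the spread within that prefix and so favours a count of 0. For the members this comparison is therefore a description.

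Tnmd averaged 9.58 in skm samples and 9.03 in nm samples, a difference of 0.56 ± 0.23 (SE), with a 95% interval of -0.03 to 1.14. Comp averaged 8.60 in skm samples and 7.99 in nm samples, a difference of 0.61 with an interval of -0.18 to 1.39. The widest interval was that of Chad, -0.75 to 2.03 around 0.64. All 8 intervals held 0. The difference was above 0 for 6 members and below 0 for Fmod (-0.21) and Scx (-0.03). Their median was 0.37, and without nm8 it was -0.02, while without nm7 it was 0.69. For Fmod the sign turned with the probe set: with probe sets prone to cross-hybridization left out it was 1.02 (adjusted p = 0.0846 in limma).

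**Figure D3:**
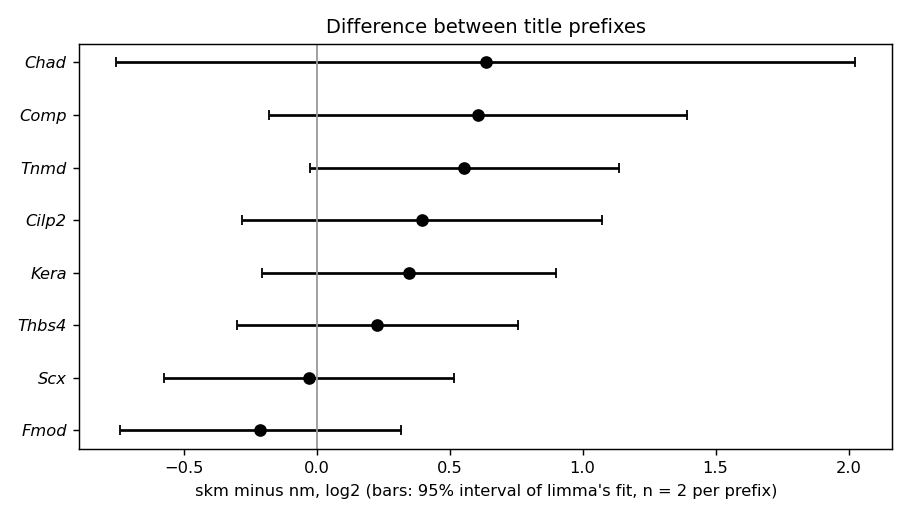
Difference between the title prefixes, skm minus nm, in log2 units for each of the 8 genes, with bars for the 95% interval of limma's fit (n = 2 per prefix). Every bar crosses 0, and the points run from -0.21 for Fmod to 0.64 for Chad.

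The other genes of tendon and its matrix did not all follow the members. Of 21 further genes listed, 18 were measured and 5 were lowest in nm8, while 13 were lowest in skm4. Col1a1, a chain of type I collagen, was lowest in nm8, with 13.20 in skm4, 13.39 in skm5, 13.07 in nm8 and 13.57 in nm7. Col12a1, a collagen on the surface of fibrils, was also lowest in nm8, with 6.99 in skm4, 6.96 in skm5, 6.53 in nm8 and 6.58 in nm7. The other collagens of the list, Col1a2, Col3a1, Col5a1, Col5a2, Col6a1, Col6a2, Col6a3 and Col14a1, were lowest in skm4, Col6a1 by 0.02. Prg4, lubricin of joint and tendon surfaces, read 8.74 in skm4, 8.25 in skm5, 6.97 in nm8 and 8.37 in nm7, a profile like that of Comp and Chad. Angptl7, a secreted angiopoietin-like protein, read 9.32 in skm4, 8.50 in skm5, 6.72 in nm8 and 7.50 in nm7, so both skm samples lay above both nm samples. Fibin, a secreted protein, read 8.05 in skm4, 8.98 in skm5, 7.55 in nm8 and 7.82 in nm7. Egr1, an early growth response factor that also acts in tendon, went the other way and was highest in nm8, with 8.21 in skm4, 8.63 in skm5, 10.16 in nm8 and 9.49 in nm7. None of the 18 passed limma's test between prefixes in either direction, and their median skm minus nm difference was -0.17, against 0.00 over all genes.

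In the SLRP family beyond the members, 8 of 12 listed genes were measured and 4 were lowest in nm8. Aspn, asporin, read 8.52 in skm4, 8.77 in skm5, 7.85 in nm8 and 8.42 in nm7. Bgn, biglycan, read 11.38 in skm4, 11.61 in skm5, 10.95 in nm8 and 11.37 in nm7. Omd, osteomodulin, was lowest in nm8 with an SD of 0.28. Ogn, osteoglycin, was lowest in skm4 with an SD of 0.20. Dcn, decorin, the common SLRP of connective tissue, had an SD of 0.08, and Lum, lumican, 0.11. Of the other thrombospondins, Thbs1 had an SD of 0.41, Thbs3 of 0.17 and Thbs2 of 0.10. Of these 3 genes, 2 were lowest in nm8, Thbs3 by 0.05, and Thbs2 was lowest in skm4. Thbs1 read 6.80 in skm4, 7.24 in skm5, 6.59 in nm8 and 7.50 in nm7.

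Of 20 cartilage genes listed, 19 were measured, 9 were lowest in nm8 and 0 passed limma's test between prefixes. Col11a2, a chain of the minor fibrillar collagen of cartilage, read 8.27 in skm4, 7.91 in skm5, 6.96 in nm8 and 8.02 in nm7. Col2a1, the main collagen of cartilage, read 7.36 in skm4, 7.52 in skm5, 6.68 in nm8 and 6.82 in nm7. Col11a1, a chain of the same collagen as Col11a2, and Mia, a secreted protein of cartilage, had SDs of 0.38 and 0.37. Matn1, a matrilin of cartilage, and Hapln1, its link protein, stayed near the TrpnX controls, at means of 3.48 and 4.01. Among 5 measured bone genes, 2 were lowest in nm8, and Sp7, Ibsp and Phex had SDs of 0.18, 0.20 and 0.33. Dmp1, a bone matrix gene, had an SD of 0.64, with nm7 highest at 6.87.

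**Figure D4:**
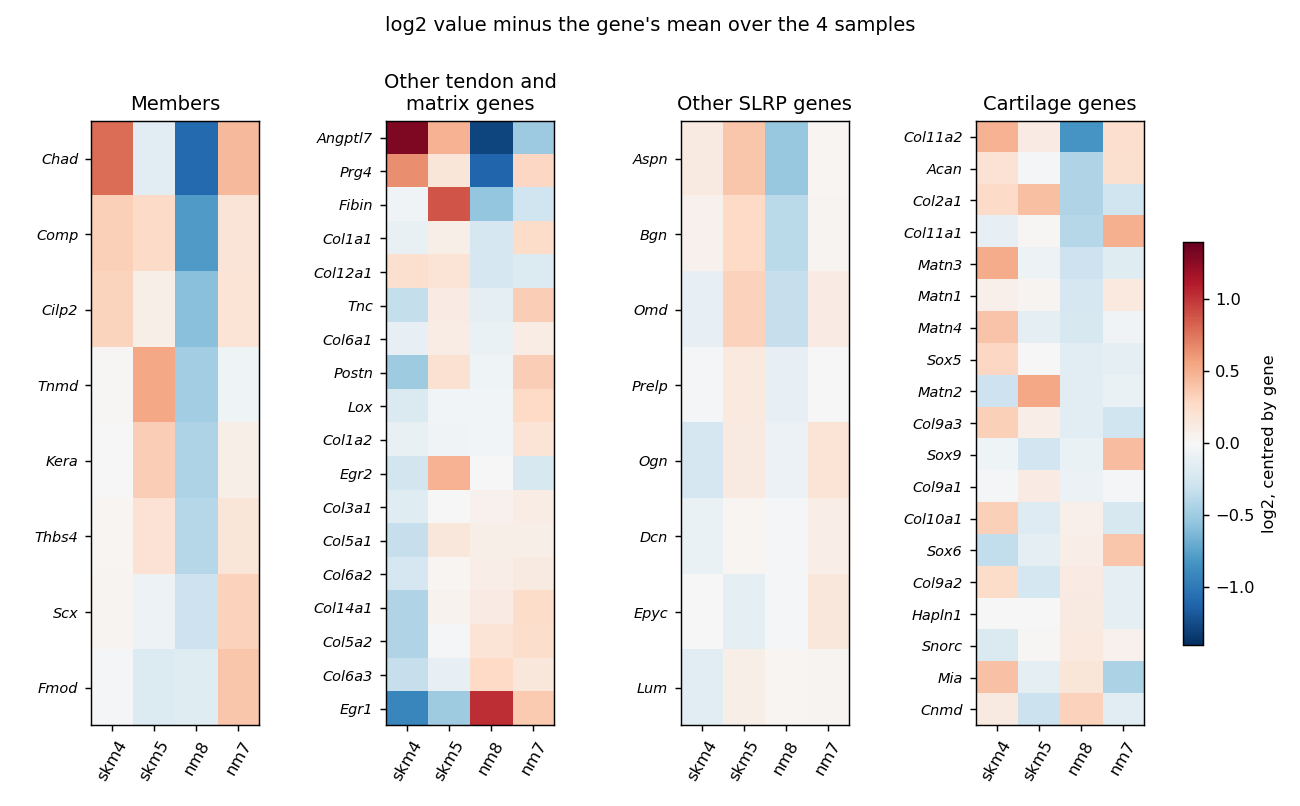
Log2 values minus each gene's mean over the 4 samples, for the members and for the lists of other tendon and matrix genes, other SLRP genes and cartilage genes, with samples as columns and genes ordered by their nm8 value. The nm8 value is below the gene's mean for all 8 members, least so for Fmod (-0.17). In the nm8 column Egr1 is at the red end and the collagens of the second panel are pale, among them Col1a1 at -0.23.

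Genes of the myotendinous junction and of TGF-beta signalling, which acts upstream of Scx in the mouse, were also read. Of 7 measured junction genes, 3 were lowest in nm8. They were Ankrd1, a stretch-responsive muscle protein, with 7.88 in skm4, 8.79 in skm5, 6.59 in nm8 and 7.89 in nm7, Nrap, with an SD of 0.32, and Lama2, with an SD of 0.12. Col22a1, a collagen of the junction, read 9.45 in skm4, 9.45 in skm5, 9.52 in nm8 and 9.84 in nm7 on its brightest probe set, whose name carries a mark of possible cross-hybridization. Its other probe set, without that mark, was lowest in nm8, with 8.31 in skm4, 8.96 in skm5, 7.78 in nm8 and 8.05 in nm7. Itgb1 had an SD of 0.17. Of 13 measured genes of TGF-beta and related signals, 3 were lowest in nm8 and 0 passed limma's test. Tgfb2, a ligand, averaged 8.53 in skm samples and 9.22 in nm samples, and its receptor Tgfbr1 9.73 in skm samples and 10.18 in nm samples. Each of these 2 genes was read from the brightest of 3 probe sets. With the 3 averaged, the SD was 0.07 for Tgfbr1, against 0.30 on the brightest, and 0.31 for Tgfb2, against 0.47. Bmp4, a related ligand, averaged 8.73 in skm samples and 8.22 in nm samples, and Skil, an inhibitor of SMAD signalling, 9.24 in skm samples and 9.92 in nm samples.

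Markers of other cells that a piece of muscle can hold also differed between samples. Centred on each gene's mean, the members had a median of 0.03 in skm4, 0.14 in skm5, -0.46 in nm8 and 0.19 in nm7. The 8 measured fibroblast markers had medians of -0.16, 0.01, 0.04 and 0.12 in the same order of samples, so nm8 was not low for them, and 1 of the 8 was lowest there. Pdgfra, a receptor of muscle-resident fibroblasts, read 9.87 in skm4, 10.12 in skm5, 10.27 in nm8 and 10.38 in nm7 on the brighter of its 2 probe sets. Its SD was 0.22 on that probe set and 0.07 with the 2 averaged, so these differences depend on the probe set. Thy1 and Cd248 had SDs of 0.39 and 0.49 and Dpp4 of 0.24. Cd248 was higher in nm samples, with a skm minus nm difference of -0.85 (adjusted p = 0.0506 in limma).

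The 9 measured leukocyte markers had medians of -0.76, -0.12, 0.50 and 0.55, again from skm4 to skm5, nm8 and nm7, and 7 of the 9 were highest in nm8. Ptprc, the pan-leukocyte antigen CD45, read 7.28 in skm4, 9.33 in skm5, 10.54 in nm8 and 10.43 in nm7, and Cd53, Coro1a and Ltb had SDs of 1.07, 1.20 and 1.27. The 6 adipocyte markers had -0.55, 0.02, 0.37 and 0.20. Lep, the hormone leptin, read 6.80 in skm4, 7.50 in skm5, 9.55 in nm8 and 9.28 in nm7, and Pparg, Retn and Adipoq had SDs of 0.58, 0.53 and 0.36. For Lep the skm minus nm difference was -2.26 (adjusted p = 0.0506 in limma). The remaining adipocyte markers, Fabp4 and Cidec, were highest in skm5, with skm minus nm differences of -0.014 and 0.007. The 8 slow fibre genes had 0.41, -0.43, -0.26 and 0.29, and all 8 were lower in nm8 than in nm7, as the members were, but all 8 were lowest in skm5. Among them Myh7, Myl3, Tnni1 and Tnnt1 had SDs of 0.58, 0.45, 0.45 and 0.42.

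The 9 keratinocyte markers had a median of 0.95 in skm5, and 7 of the 9 were highest there. Trp63 was highest in nm7 and Sfn in skm4. Lor, Perp and Krt1 had SDs of 1.27, 1.18 and 0.95. The 6 nerve and Schwann cell markers had a median of 0.35 in skm5, and 5 of the 6 were highest there. Mag was highest in skm4, with 6.55 against 6.41 in skm5. S100b, Mbp, Egr2 and Pmp22 had SDs of 0.68, 0.57, 0.34 and 0.30. The 8 endothelial markers went both ways, and 2 of them had a range over 1. Pecam1, a junction protein of endothelium, read 8.92 in skm4, 9.29 in skm5, 7.83 in nm8 and 7.77 in nm7, and Ramp2 read 10.65 in skm4, 10.72 in skm5, 9.64 in nm8 and 9.76 in nm7. For both genes the skm samples lay above the nm samples, by 1.31 for Pecam1 and 0.99 for Ramp2 (adjusted p = 0.0506 for each in limma). Kdr, a VEGF receptor, went the other way, with 8.88 in skm4, 8.72 in skm5, 9.39 in nm8 and 9.37 in nm7, and Vwf had an SD of 0.14. The lowest reading in these lists was 4.12, of Dsp, a keratinocyte marker, in nm7, and the part of other cells in the members' profile was not tested.

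Over 6191 other genes at or above the median level, 8 had the profile most like the members' median, by the root mean square difference of centred log2 values over the 4 samples. They were Brd1 (0.06), Eln, which encodes elastin (0.06), Exoc7 (0.06), Metrnl (0.06), Hic1 (0.06), Slc9a3r2 (0.06), Nacc2 (0.07) and Smarca2 (0.08), while the median over those genes was 0.30. Eln read 10.50 in skm4, 10.68 in skm5, 10.15 in nm8 and 10.77 in nm7. All 8 were lowest in nm8, which the way they were chosen fixes. Among the members, Thbs4 was nearest to the median profile (0.05), then Kera (0.12), and Chad was farthest (0.53).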

How the data were processed

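The authors deposited log2 values, 1 per probe set. Per the submitters' processing notes they used RMA and Affymetrix Expression Console 1.1. RMA removes background, equalises the arrays' distributions and summarises probes, so differences among the dimmest and brightest readings are understated. That the scale is log2 was judged from its range. For the set of arrays normalized together, nothing is given in the sources used here. Per the labels' protocols, RNA came from 1 of 2 extraction routes, not given by sample.

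Of 22690 probe sets, 20380 non-control ones were annotated to 1 gene, 691 to several and 1555 to none. Symbols were updated by Entrez ID against the GRCm38.p6 table, and 29 probe sets kept the older symbol. The probe set with the highest mean stood for each of 12393 genes. All 4 samples are 1 group. Skm minus nm was fitted over all genes with limma 3.58.1 in R 4.3.3 (lmFit, eBayes, 2-sided), adjusted by Benjamini-Hochberg across the whole table with a 0.05 threshold. The script was first tested on simulated data. The fit had 2 residual and 3.51 prior degrees of freedom. Precision is limited by the number of arrays.

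The members and the 15 other gene lists were chosen with earlier results of these data known. All measured members were named, up to 4 genes of each other list by SD (muscle genes by mean level), and the 8 genes of nearest profile. Beyond that rule, Bop1, Acsf2, Dcn, Lum, Lama2, Matn1, Hapln1, Fabp4, Cidec, Trp63, Sfn and Mag were named after their values were seen. So were all measured collagens of the tendon list. Alternatives were renormalization, median centring, dropping genes under the median level, averaging a gene's probe sets, dropping probe sets marked for cross-hybridization, an intensity trend and each sample left out.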

Additional observations from a re-analysis of the deposited data

Results flagged for a closer look

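Among 75 genes covered by the naming rule, 8 of them members, 5 had 1 sample apart from the others by Dixon's ratio, the gap to the nearest sample over the whole range, past its 95% critical value for 4 samples. Among genes picked without regard to their values, chance would flag about 1 in 20. These genes were picked with their values, spread, level or profile in view, so the count cannot be set against that rate. Comp, the only member among them, had nm8 apart on the low side, with a ratio of 0.859; the members were chosen with their low values in nm8 known, so this ratio is a description and no test. Nacc2, one of the genes of like profile, also had nm8 apart on the low side (0.937), which its choice by that profile favours. On the high side were nm7 for Dmp1, a bone matrix gene (0.872), nm7 for Col22a1 on its brightest probe set (0.838) and skm5 for Dsp, a desmosome gene of keratinocytes (0.915).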

How the results depend on the processing

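The members' count of 0 between prefixes held under all 10 alternatives. The count of all genes, 4, was 186 with quantile normalization, 1026 with a filter at the median level, 92 with the mean of probe sets, 78 without probe sets prone to cross-hybridization, 1110 with an intensity trend and 0 to 15 with 1 sample left out. Leaving out 1 sample moved the members' median difference between -0.022 and 0.69, both ends set by the nm samples, and the number with a range over 1 between 0 (without nm8) and 3. The number lowest in nm8 was 8 when probe sets were averaged and without cross-hybridizing ones, 5 of the 6 members left by the filter, and 7 to 8 with another sample left out. It had no value without nm8. The filter left no value for Scx and Chad. Without cross-hybridizing probe sets the SD was 0.65 for Fmod and 0.51 for Col22a1, against 0.27 and 0.19 on the brightest ones. The difference changed sign for Fmod with the mean of probe sets (0.35), without cross-hybridizing ones (1.02) and without nm7, for Scx without skm5 (0.023) and without nm7, and for Thbs4 and Chad without nm8. With 1 sample left out the difference ran from -0.49 to 0.068 for Fmod, -0.33 to 0.27 for Scx, -0.051 to 0.51 for Thbs4 and -0.14 to 1.41 for Chad. With 1 sample left out, the lone sample of a prefix was assumed to vary like the others. The cause of these shifts was not tested. No paired analysis was possible because the prefixes share no replicate number in the titles.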
